A study of Sus scrofa with 6 samples.

Results

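The genes described here were protein-coding genes of the pig whose level in the ovary was higher in every Meishan sample than in every Large White sample by a set margin. The genes were selected on their measured RPKM in all 6 samples. A gene was taken when its lowest RPKM among the 3 Meishan samples was at least 0.5 and at least 1.5 times its highest RPKM among the 3 Large White samples. RPKM is the number of reads on a gene divided by its length and by the number of mapped reads of the sample, so that levels can be set side by side between genes. Of the 21594 protein-coding genes listed, with mitochondrial genes left out, 181 met the rule (0.838%), while 267 met its mirror image with Large White higher (1.24%). Because the rule was written on these same values, the separation of the 181 genes is a description and not a result. Counts of them called in a fit over all features are also given as a description, since that fit used the same 6 samples.

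Meishan is a Chinese breed known for large litters and early puberty, and Large White is a European breed kept for growth and lean meat. The ovary is built from germ cells, from the somatic cells that enclose them, from steroid-producing cells and from a vascularised stroma, and its RNA is a mixture of all of them. Expression that differs between breeds may follow sequence differences at a gene, the number of cells that express it, or the state of those cells. In bulk samples, fewer cells of a type and less RNA per cell cannot be told apart.

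Total RNA depleted of ribosomal RNA was sequenced from 3 ovary samples of the Meishan breed and 3 of the Large White breed, all at 49 days post coitus, with no treatment named for either breed. The labels number the samples 1 to 3 within each breed but do not say whether they came from separate animals. The study's methods name 3 individuals as biological replicates of its tissue collection without naming these ovaries, so the p-values below measure only the spread between these samples, and whether it is biological or technical is not given. Nor do they say whether the ovaries were those of fetuses or of the pregnant animals. Values are given below in the order of replicates 1, 2 and 3.

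Recovered depth lay between 35185781 and 39033204 mapped reads per sample, of which 36.6% to 46.3% fell on listed features. Meishan replicate 3 stood apart from the other samples. Its correlations with them over log2 values were 0.865 to 0.888, against 0.932 to 0.975 for the other pairs. Markers of steroid-producing cells were abundant in all samples, with CYP11A1, which makes pregnenolone from cholesterol, at 506 to 1882 RPKM. The germ cell markers DDX4, LIN28A, TFAP2C and NANOS3 lay between 0 and 1.58 RPKM, and NANOS2 was listed at 0 throughout. KIT, on the same list, was higher in every sample, with its values given below. The 10 matched genes of that list summed to 5.12 to 11.0 RPKM in Meishan and 17.6 to 19.1 in Large White. In Meishan replicate 3 the inhibin subunit genes INHA and INHBA reached 491 and 221 RPKM, against 1.304 to 4.93 in the other 5 samples. The summed RPKM of 15 cell cycle genes was 122 in that sample and 9.67 to 13.0 in the others. The part of this sample's composition in the values below was not tested beyond leaving it out.

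Most of the 181 genes were expressed at low to moderate levels. Their median RPKM was 3.20 in Meishan and 0.810 in Large White. The 13375 tested protein-coding genes without mitochondrial ones had medians of 5.25 and 5.18, and 13388 were tested with mitochondrial genes kept. A mean under 5 RPKM in Meishan was found for 63.0% of the separated genes and for 48.3% of the tested genes. The mean lay between 0.5 and 1 RPKM for 15 genes, between 1 and 5 for 99, between 5 and 10 for 34, and at 10 or more for 33. Reads were few for some of them. The lowest Meishan sample held under 10 reads for 2 genes and at least 100 reads for 117, with a median of 153. The relative counting error was largest for the genes with the fewest reads, which depend on gene length as well as on RPKM.

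The margin between the breeds was narrow for most genes. The lowest Meishan value was 1.5 to 2 times the highest Large White value in 107 genes, 2 to 5 times in 48, and 5 times or more in 26, where Large White values under 0.1 RPKM were counted as 0.1. The median ratio of the breed means was 3.23 over the 174 genes with a Large White value above 0, and 2.83 with Meishan replicate 3 left out. In 7 genes all 3 Large White samples were listed at 0, and in 28 at least 1 was. By limma on log2(RPKM + 1), with a Benjamini-Hochberg adjusted p under 0.05 and a fold of at least 2, 30 protein-coding genes were called higher in Meishan (0.224% of those tested). All 30 belonged to the separated genes and the other 151 separated genes were not called, a count that the rule and the test share by construction. Without Meishan replicate 3 limma called 90 genes, 49 of them separated genes. It called 13 and 14 without Meishan replicate 1 or 2, and 0 without any 1 of the Large White samples. With the only requirement that every Meishan value exceed every Large White value, 1323 tested genes would qualify (9.89%), so the margin of 1.5 and the minimum level set the size of the group.

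**Figure D1:**
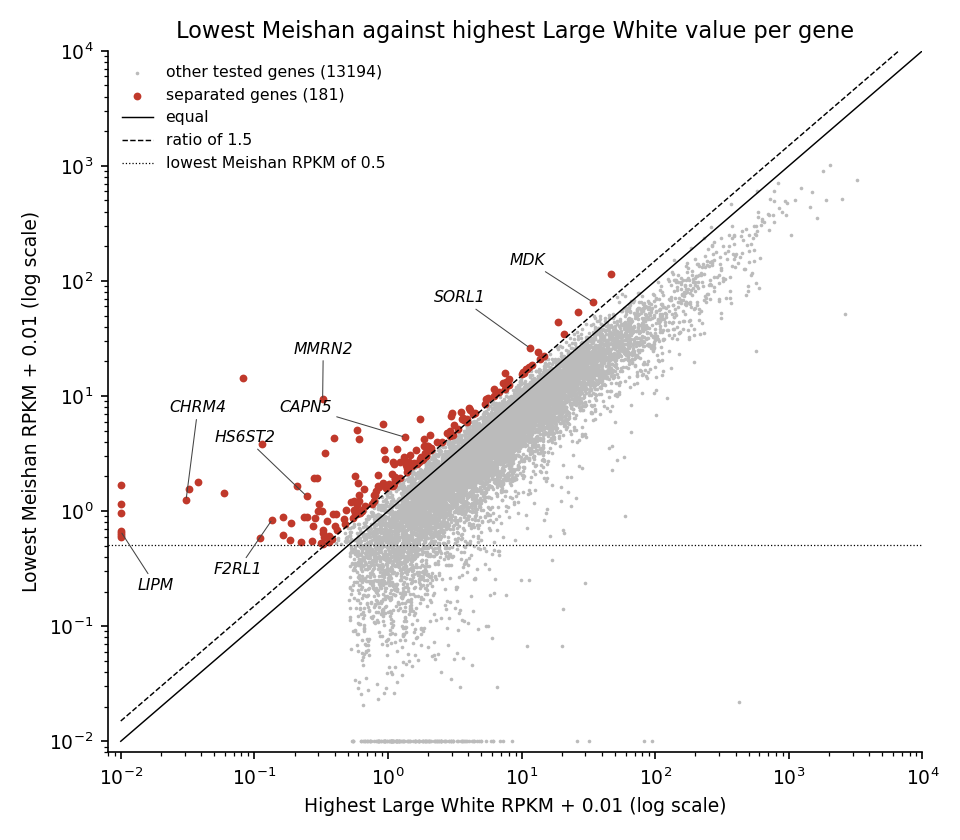
Lowest Meishan RPKM (vertical axis) against highest Large White RPKM (horizontal axis) for 13375 tested protein-coding genes, both plus 0.01 on log scales. The 181 separated genes (red) lie on or above the dashed line of ratio 1.5 and the dotted line of 0.5 RPKM. Most sit close to the dashed line and a few, among them CHRM4, LIPM and MMRN2, lie far to the left.

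Around these limits the genes were continuous with the rest. Just inside the ratio limit stood SIDT2, a lysosomal membrane protein, with 5.43, 5.20 and 4.56 RPKM in Meishan and 2.37, 3.03 and 2.73 in Large White, a ratio of 1.502. ENSSSCG00000024763 and ENSSSCG00000011556 followed at 1.502 and 1.512. Just outside stood ENSSSCG00000009224, ENSSSCG00000011333 and ENSSSCG00000026443, with ratios of 1.497, 1.497 and 1.494.

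A gene symbol could be given to 81 of the 181 genes, 78 from a gene table and 3 from the annotation table of the study. That is 44.8%, against 54.7% of all protein-coding genes and 65.3% of those tested. The genes with a symbol were sorted by textbook role into 9 groups that hold 60 of them, a grouping drawn up after the values were seen. None of the 181 genes was on any of the 23 lists of cell type markers and pathways used below. Every gene that limma called higher was among the 181, so no list gene could be called higher.

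Genes of the cell surface and the extracellular matrix made up 8 of the separated genes with a symbol, with a median ratio of means of 6.87, or 7.76 without Meishan replicate 3. MMRN2, multimerin 2, is a glycoprotein of the matrix around blood vessels. It was at 25.4, 26.05 and 9.34 RPKM in Meishan and at 0.314, 0.188 and 0.278 in Large White, or 20.3 ± 9.46 against 0.260 ± 0.0651 (SD, n = 3), a 77.9-fold ratio of means. Even the lowest Meishan sample, replicate 3, was 29.7 times the highest Large White sample. F5, coagulation factor V, also had its lowest Meishan value in replicate 3, with 3.005, 7.05 and 0.936 RPKM against 0.378, 0.268 and 0.395 in Large White. Its Meishan samples differed from each other more than 5-fold, and its ratio of means was 14.5 without replicate 3 against 10.5 with it.

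HS6ST2, a sulfotransferase that modifies heparan sulfate chains, had the opposite pattern among the Meishan samples. Its values were 2.14, 1.34 and 12.5 RPKM in Meishan and 0.236, 0.0493 and 0.115 in Large White, and the ratio of means of 39.8 fell to 13.0 without replicate 3. SPOCK3, a secreted proteoglycan of the testican family, was at 33.4, 18.5 and 46.2 RPKM against 11.9, 10.3 and 9.19. The neural cell adhesion molecule gene NCAM1 was at 3.28, 3.90 and 8.25 RPKM against 1.66, 1.22 and 1.96. CPXM1, a secreted carboxypeptidase-like protein, and CD248, a surface protein of stromal cells and pericytes, differed 2.07-fold and 2.15-fold in their means. The group was therefore not uniform, with MMRN2 and F5 lowest in Meishan replicate 3 and 5 genes highest in it.

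No vessel marker from the list was called. All 8 endothelial genes on the list were tested, 0 were called by limma in either direction, 1 had an unadjusted p under 0.05 (lower in Meishan), and their median log2 fold change was 0.01, against -0.04 over all tested genes. PECAM1, an adhesion protein of endothelial cells, was at 38.2, 30.7 and 19.1 RPKM in Meishan and at 26.6, 29.0 and 27.3 in Large White. The summed RPKM of the 8 genes was 98.2 to 188 in Meishan and 140 to 158 in Large White. Of the 8 tested macrophage and lymphoid markers, 0 were called by limma, 3 had an unadjusted p under 0.05, none had a log2 fold change above 0, and the median was -0.57. Their summed RPKM was 44.3 to 91.3 in Meishan and 140 to 173 in Large White. For scale, limma gave an unadjusted p under 0.05 to 2145 of the 13388 tested protein-coding genes, 820 of them higher in Meishan.

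Receptors coupled to G proteins made up 4 of the separated genes, with a median ratio of means of 17.6, or 14.8 without Meishan replicate 3. Their levels were low except for NPY2R, with a Meishan mean of 6.93 RPKM. CHRM4, the muscarinic acetylcholine receptor M4, was at 1.24, 3.17 and 1.52 RPKM in Meishan, or 62, 161 and 81 reads. In Large White it had 1 read in replicate 1 and was listed at 0 in the other two samples. F2RL1, a receptor that proteases activate by cutting it, was at 2.57, 0.833 and 2.51 RPKM in Meishan and at 0.126, 0.0909 and 0.00913 in Large White. NPY2R, a receptor for neuropeptide Y, was at 5.64, 2.81 and 12.4 RPKM against 0.940, 0.697 and 0.653, with the highest value in Meishan replicate 3. NPSR1, the receptor for neuropeptide S, was at 2.74, 0.845 and 1.15 RPKM against 0.455, 0.0792 and 0.238. Apart from NPY2R these receptors were not highest in replicate 3, and all had few reads in Large White, between 0 and 38 per sample over the 4 genes.

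Among 6 genes for cytokines, growth factors and their receptors, MDK had the highest level of all separated genes with a symbol. It encodes midkine, a secreted growth factor that binds heparin. Its values were 65.6, 72.5 and 171 RPKM in Meishan and 33.99, 29.2 and 31.1 in Large White, a ratio of means of 3.28 that was 2.20 without Meishan replicate 3. EGFR, the receptor for epidermal growth factor, was even among the Meishan samples, with 9.94, 9.45 and 10.8 RPKM against 4.91, 3.90 and 5.39 in Large White. LRP5, a co-receptor for Wnt ligands, was similarly even in Meishan at 11.6, 11.8 and 12.9 RPKM, but varied more in Large White at 5.51, 4.78 and 7.46. AMCF-II, a chemokine that attracts neutrophils, stood high in a single Meishan sample, with 3.65, 15.9 and 3.98 RPKM against 1.57, 1.69 and 1.85.

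The remaining members of that group were genes of type I interferons, antiviral cytokines encoded by a family of near-identical genes, so reads may be split among copies and their levels are uncertain. IFN-OMEGA-6 was at 4.53, 9.85 and 8.67 RPKM in Meishan and at 1.39, 2.05 and 1.17 in Large White. IFN-ALPHA-11 was at 1.202, 0.985 and 2.77 RPKM against 0.312, 0.245 and 0.147, the latter from 3 to 6 reads per sample. Genes that interferons induce were measured as well. Of 21 matched, 19 were tested, 0 were called by limma, 3 had an unadjusted p under 0.05 and the median log2 fold change was 0.20. MX1, an antiviral GTPase of that list, was at 9.43, 12.6 and 10.3 RPKM in Meishan and at 8.06, 8.59 and 9.29 in Large White. Its limma log2 fold change was 0.28 ± 0.17 (SE), with a Benjamini-Hochberg adjusted p of 0.449. SOCS1, an inhibitor of cytokine signalling that is one of the separated genes, was at 2.63, 4.17 and 2.86 RPKM in Meishan and 0.854, 1.06 and 1.55 in Large White.

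**Figure D2:**
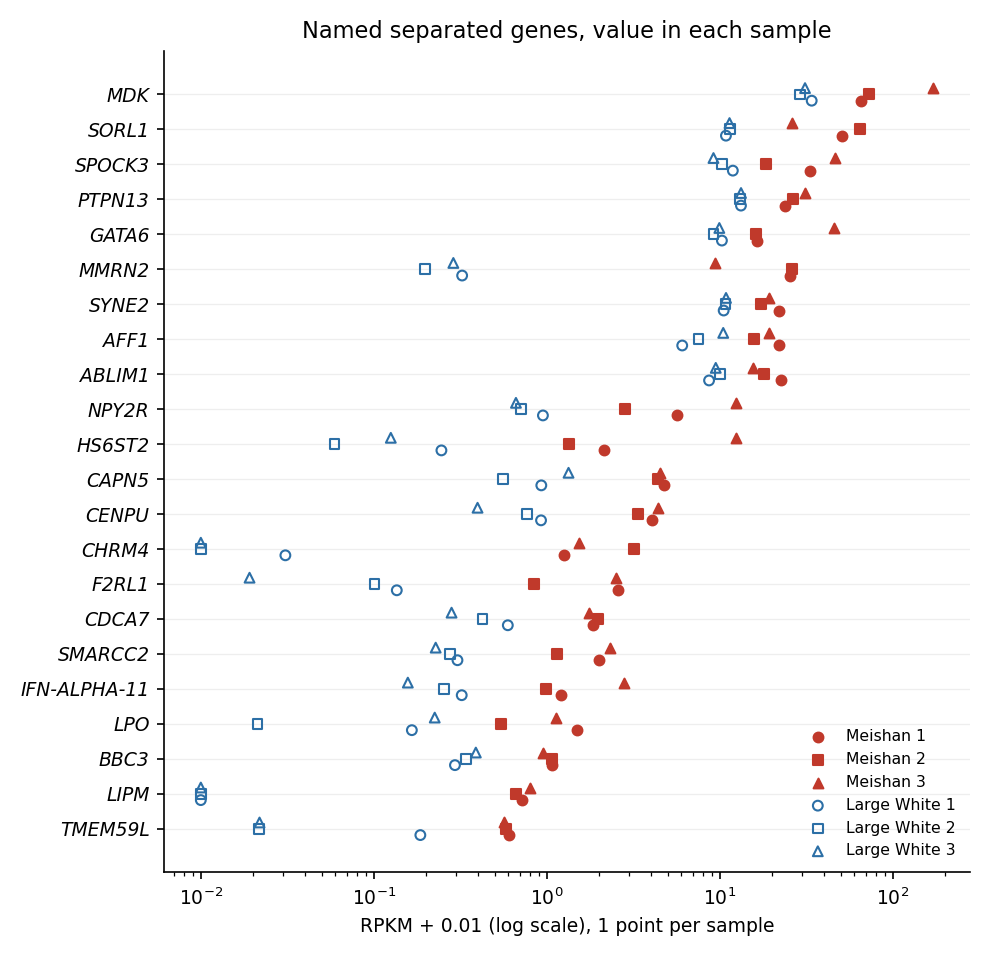
RPKM plus 0.01 (horizontal log axis) of 22 separated genes with a symbol in each of the 6 samples, ordered by their mean in Meishan, with filled red marks for Meishan, open blue marks for Large White, and circle, square and triangle for replicates 1, 2 and 3. The triangle of Meishan replicate 3 lies to the right of the other Meishan marks for MDK, GATA6, NPY2R and HS6ST2 and to their left for MMRN2 and SORL1.

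A group of 8 genes served the cell cycle, the centromere and DNA repair, with a median ratio of means of 4.19, and 3.25 without Meishan replicate 3. CENPU, a protein of the centromere, was at 4.05, 3.38 and 4.38 RPKM in Meishan and at 0.916, 0.762 and 0.388 in Large White. CDCA7, which works with a chromatin remodeller in DNA methylation, was at 1.85, 1.98 and 1.76 RPKM against 0.585, 0.415 and 0.272. PKMYT1, a kinase that holds back entry into mitosis, was at 5.004, 5.08 and 3.06 RPKM against 1.199, 1.14 and 1.46. These 3 genes and KIF14, a kinesin needed for cytokinesis with 2.67, 2.84 and 3.89 RPKM against 1.09, 0.616 and 0.628, varied less than 2-fold among the Meishan samples.

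The other 4 cell cycle genes varied more than 2-fold. These 4 with CENPU and KIF14, 6 of the 8 in all, were highest in Meishan replicate 3. BRCA1, a gene of DNA repair, was at 2.24, 1.62 and 4.21 RPKM in Meishan and 0.840, 0.707 and 0.417 in Large White. TIMELESS, which protects replication forks, was at 0.780, 0.513 and 3.99 RPKM against 0.305, 0.208 and 0.268. CCNE2, a cyclin of the entry into S phase, was at 0.739, 0.817 and 2.49 RPKM against 0.235, 0.321 and 0.392. GAS2L3, a cytoskeletal protein of dividing cells, was at 1.02, 0.947 and 3.71 RPKM against 0.479, 0.424 and 0.559. Without replicate 3 the ratio of means was 2.48 for TIMELESS, 2.46 for CCNE2 and 2.02 for GAS2L3, against 6.76, 4.27 and 3.88 with it. On the list of general proliferation genes 10 were tested, all 10 had a log2 fold change above 0 with a median of 0.74, and by limma 0 were called and 0 had an unadjusted p under 0.05. TOP2A, the topoisomerase of dividing cells, was at 1.37, 1.72 and 34.6 RPKM in Meishan and 1.67, 1.68 and 1.83 in Large White, so Meishan replicates 1 and 2 were at the level of Large White. The 8 separated genes lie above Large White in those samples too, as the rule requires.

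Of 9 genes for transcription and chromatin, GATA6, a transcription factor of ovarian somatic cells, had the highest level. It was at 16.5, 16.3 and 45.6 RPKM in Meishan and 10.3, 9.18 and 9.93 in Large White, and its ratio of means was 2.67, or 1.67 without replicate 3. AFF1, a scaffold of the complex that promotes transcription elongation, was at 22.1, 15.8 and 19.1 RPKM against 6.06, 7.53 and 10.5. SMARCC2, a subunit of the SWI/SNF chromatin remodeller, had the widest separation of the group at a low level, with 1.98, 1.14 and 2.30 RPKM against 0.295, 0.266 and 0.218. KLF6, a zinc finger factor, varied least, with 8.53, 9.11 and 9.38 RPKM against 5.08, 5.14 and 5.31. CREB3L2, a membrane-bound factor of the secretory pathway, and MRTFA, a coactivator that responds to actin, differed 2.06-fold and 1.97-fold. MEF2B, a factor of the MEF2 family, ASXL1, a chromatin regulator that works with Polycomb proteins, and the zinc finger gene ZNF510 had ratios of means of 2.28, 2.01 and 3.95. ZNF510 was carried by replicate 3, with 1.87 RPKM there and 0.506 and 0.604 in the other Meishan samples. GATA4, the related factor and no separated gene, was at 30.4, 29.2 and 29.0 RPKM in Meishan and 18.1, 20.9 and 23.9 in Large White. Its limma log2 fold change was 0.49 ± 0.17 (SE), with a Benjamini-Hochberg adjusted p of 0.229.

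The largest group by role was intracellular signalling, with 11 genes and ratios of means from 1.74 to 3.44. The median ratio was 2.73, and 2.22 without Meishan replicate 3, in which 6 of the 11 genes were highest. PTPN13, a large protein tyrosine phosphatase, was at 23.9, 26.4 and 31.1 RPKM in Meishan and 13.2, 13.0 and 13.3 in Large White. SIPA1L1, which switches off the small GTPase Rap, was at 18.3, 18.2 and 17.1 RPKM against 9.53, 10.3 and 10.9. Genes that end cyclic nucleotide signals were represented by PDE2A, at 1.24, 1.01 and 1.76 RPKM against 0.476, 0.339 and 0.388, and by PDE8B, at 1.56, 1.70 and 4.24 RPKM against 0.955, 0.428 and 0.801. PRKAG3, a regulatory subunit of the energy sensor AMPK known from pigs for its effect on muscle glycogen, was at 6.59, 3.70 and 6.95 RPKM against 1.99, 1.54 and 1.80. SPRED2, an inhibitor of the RAS pathway that acts downstream of receptors such as EGFR, differed 2.04-fold. PLD1, a phospholipase, was the gene of this group that depended most on Meishan replicate 3 after PDE8B, with 24.1 RPKM there and 11.4 and 12.1 in replicates 1 and 2. PIK3R6, RHOBTB1 and ARHGAP26 had ratios of means of 3.21, 2.38 and 2.23, and of 3.08, 2.12 and 2.22 without that sample.

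Structural and membrane proteins added 8 genes. SYNE2, which links the nucleus to actin, was at 22.04, 17.2 and 19.2 RPKM in Meishan and 10.5, 10.8 and 10.9 in Large White. ABLIM1, an actin-binding LIM protein, was at 22.6, 18.02 and 15.7 RPKM against 8.66, 10.1 and 9.47. SPTB, a spectrin, and TMOD2, which caps actin filaments, differed 2.48-fold and 2.47-fold. The channels and transporters were SIDT2, ATP2B3, SLC44A3 and TRPC4. TRPC4, a cation channel, was at 1.18, 1.17 and 1.02 RPKM against 0.542, 0.255 and 0.210, and ATP2B3, a calcium pump of the plasma membrane, at 0.682, 0.784 and 1.07 against 0.273, 0.318 and 0.306. None of these genes differed by more than 4.45-fold, the ratio of the choline transporter-like gene SLC44A3.

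Enzymes of lipid, nucleotide and protein metabolism numbered 6. CAPN5, a calcium-dependent protease, was the most even of them among the Meishan samples, with 4.75, 4.38 and 4.52 RPKM there. In Large White it varied more, with 0.920, 0.548 and 1.33. LIPM, a lipase described in skin, had 33, 31 and 39 reads in Meishan, or 0.709, 0.655 and 0.785 RPKM, and was listed at 0 in all 3 Large White samples. LPO, lactoperoxidase, was at 1.48, 0.533 and 1.12 RPKM against 0.156, 0.0113 and 0.215. NT5E, which makes adenosine at the cell surface, was at 3.01, 2.07 and 7.36 RPKM against 0.713, 0.771 and 1.07. EPHX2, soluble epoxide hydrolase, was at 2.68, 2.77 and 8.10 RPKM against 1.68, 1.35 and 1.48. CRYM, a thyroid hormone-binding protein, was at 1.13, 1.23 and 3.33 RPKM against 0.743, 0 and 0.681. NT5E, EPHX2 and CRYM were thus highest in Meishan replicate 3, and their ratios of means of 4.88, 2.998 and 3.996 became 2.99, 1.81 and 2.49 without it.

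Of the 21 genes with a symbol and no role group, SORL1 was the most abundant. It encodes a sorting receptor of the LDL receptor family and was at 50.8, 64.3 and 26.2 RPKM in Meishan and 10.8, 11.5 and 11.4 in Large White, 47.1 ± 19.3 against 11.2 ± 0.335 (SD, n = 3). BBC3, which encodes the pro-apoptotic protein PUMA, was low but even, with 1.06, 1.06 and 0.935 RPKM against 0.285, 0.330 and 0.379. TMEM59L was at 0.592, 0.570 and 0.555 RPKM against 0.176, 0.0118 and 0.0118, the latter from 14, 1 and 1 reads. TMEM74 showed the strongest dependence on a single sample, with 23.7 RPKM in Meishan replicate 3, 1.52 and 1.09 in the other Meishan samples, and 0.660, 0.350 and 0.392 in Large White. Its ratio of means of 18.8 was 2.79 without that sample. KLHL31 had the same pattern at a lower level, with 0.603, 0.762 and 3.39 RPKM against 0.104, 0.350 and 0.281. Even and close to the limit were LIMD1, a LIM protein of the Hippo pathway, at 7.29, 8.55 and 7.17 RPKM against 4.49, 4.12 and 4.39, and HOMER2, a scaffold of signalling complexes, at 5.03, 4.49 and 3.97 against 2.52, 2.39 and 2.54. SELENON, a selenoprotein of the endoplasmic reticulum, was at 14.1, 16.6 and 24.2 RPKM against 8.07, 8.01 and 6.29.

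The 100 genes without a symbol included most of the extremes. They held 21 of the 26 genes with a ratio of 5 or more, 25 of the 30 that limma called (0.224% of tested genes being called higher), and 6 of the 7 listed at 0 in every Large White sample. Their median ratio of means was 3.35, against 3.04 for the genes with a symbol. ENSSSCG00000021767 had the widest ratio, with 21.6, 56.2 and 14.4 RPKM in Meishan and 0.0728, 0 and 0 in Large White. In reads these were 1542, 4080 and 1097 against 5, 0 and 0, so the gene was abundant in every Meishan sample and near absent from the Large White libraries as counted. ENSSSCG00000023383 followed with 6.34, 7.09 and 3.79 RPKM, or 511, 581 and 326 reads, against 8, 2 and 0 reads. The most abundant of all 181 genes also had no symbol. This was ENSSSCG00000024107, chosen after its values were seen, with 115, 188 and 272 RPKM against 47.0, 46.0 and 38.9.

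The separated genes spread more among the Large White samples than other genes did, and about as much among the Meishan samples. The median ratio of SD to mean was 0.246 in Meishan and 0.228 in Large White, against 0.258 and 0.158 for tested genes. The rule selected genes with low Large White values, with a median of 0.810 RPKM against 5.18 for tested genes. Relative counting error is larger at low levels, and its part in this spread was not tested. In 30 genes the Meishan samples agreed to within an SD of 10% of the mean, as in CAPN5, EGFR and KLF6. In 25 genes a Meishan sample was at least 3-fold above another. Meishan replicate 3 was the highest Meishan sample in 88 genes (48.6%, against 36.7% of tested genes) and the lowest in 56 (30.9%, against 42.9%). It was 2 or more times the mean of replicates 1 and 2 in 27 genes (14.9%, against 9.26%) and at or under 0.5 times that mean in 13 (7.18%, against 11.9%). The rule drops genes with a low value in any Meishan sample, so it shapes these shares, which are a description only.

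**Figure D3:**
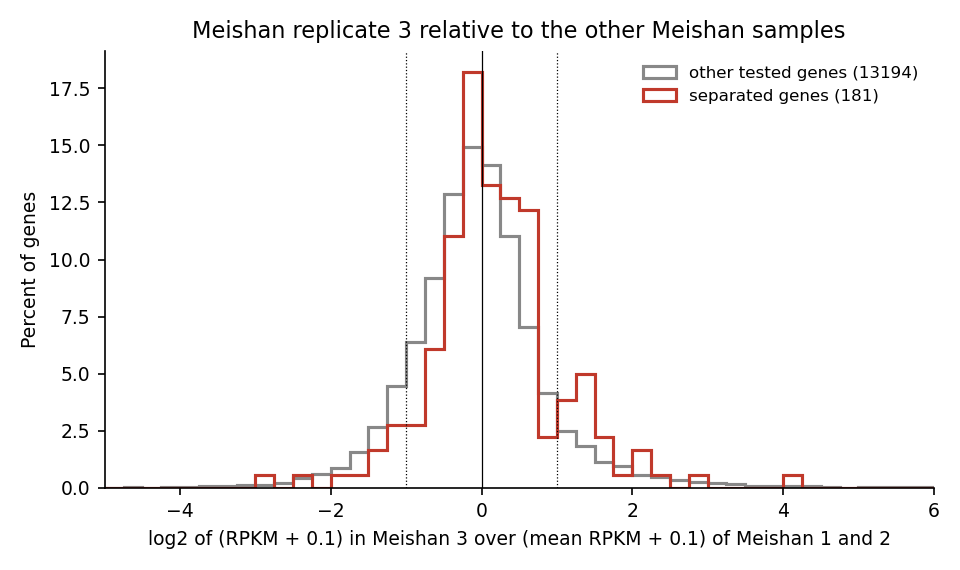
Distribution, in percent of genes per bin of 0.25, of the log2 ratio of Meishan replicate 3 to the mean of Meishan replicates 1 and 2, with 0.1 RPKM added to both, for the 181 separated genes (red) and the other tested genes (grey). The dotted lines mark ratios of 2 in either direction, and the red line has a second rise beyond the right-hand one. The rule drops genes that fall too low in replicate 3, so it shapes the red line.

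Because the rule takes the lowest Meishan value, adding a Meishan sample can only remove genes from the group. A Meishan sample that is high for a gene does not limit that gene, whose place then rests on the other Meishan samples. Without Meishan replicate 3 the rule was met by 412 genes, of which the 181 were 43.9%, and 231 were new. Leaving out Meishan replicate 1 or 2 gave 349 and 344 genes, and leaving out a Large White sample gave 240 to 329. All 181 genes met the rule in each of these settings, as its construction requires.

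Positions were compared on the gene order of the Sscrofa11.1 assembly, on which 75 separated genes with a symbol could be placed, since the files were made on an older assembly. Among them 8 (10.7%) had another separated gene within 5 genes, against 4.29% of the 8231 tested genes placed. CHRM4 and MDK were direct neighbours. AFF1 and PTPN13 had 2 genes between them, and F2RL1 and PDE8B had 4. DGKZ, on the far side of MDK, was at 13.3, 14.4 and 10.3 RPKM against 8.01, 9.04 and 9.15, with a limma log2 fold change of 0.48 ± 0.17 (SE) and a Benjamini-Hochberg adjusted p of 0.245.

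The genes directly beside separated genes that did not meet the rule themselves were tested. Of 95 that could be placed and were no separated genes, 70 were tested, with a median log2 fold change of -0.06. By limma 0 of them were called higher and 2 lower in Meishan (0.515% of tested genes were called lower), with 3 and 4 at an unadjusted p under 0.05, and limma-voom on recovered reads gave the same counts. Every gene that either test called higher was a separated gene, so leaving those out fixed the 0 in advance. It also trims the higher side of the median and of the unadjusted counts, so nothing is drawn from them. By limma 2145 of the 13388 tested protein-coding genes were under that p, 820 of them higher. The largest difference was in SNCG, which encodes gamma-synuclein and lies next to MMRN2. It was at 1.46, 1.58 and 0.597 RPKM in Meishan but at 15.5, 16.3 and 16.1 in Large White, the reverse of MMRN2, with no overlap. Its limma log2 fold change was -2.97 ± 0.21 (SE), with a Benjamini-Hochberg adjusted p of 0.00376. Without Large White replicate 1 or 2 the limma adjusted p by Benjamini-Hochberg was 0.0585 or 0.0554, at log2 fold changes of -2.99 and -2.96. SNCG was singled out after its values were seen. BMPR1A, a receptor for bone morphogenetic proteins on the other side of MMRN2, was at 8.61, 8.80 and 9.15 RPKM in Meishan and 9.95, 7.01 and 6.66 in Large White, values that overlapped. Its limma log2 fold change was 0.17 ± 0.18 (SE), with a Benjamini-Hochberg adjusted p of 0.692. Both MMRN2 and SNCG were lowest among the Meishan samples in replicate 3.

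The second such gene was POSTN, next to TRPC4. POSTN encodes periostin, a matrix protein of stromal cells, and was at 5.17, 4.16 and 7.25 RPKM in Meishan and 13.9, 16.4 and 13.5 in Large White. By limma its log2 fold change was -1.28 ± 0.21 (SE), with a Benjamini-Hochberg adjusted p of 0.0459 that lay between 0.00902 and 0.229 over the alternatives. It stayed under 0.05 only with limma-voom and without Meishan replicate 3. It was 0.0944 and 0.105 by limma without Meishan replicate 1 or 2, and 0.168 to 0.229 without 1 of the Large White samples.

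**Figure D4:**
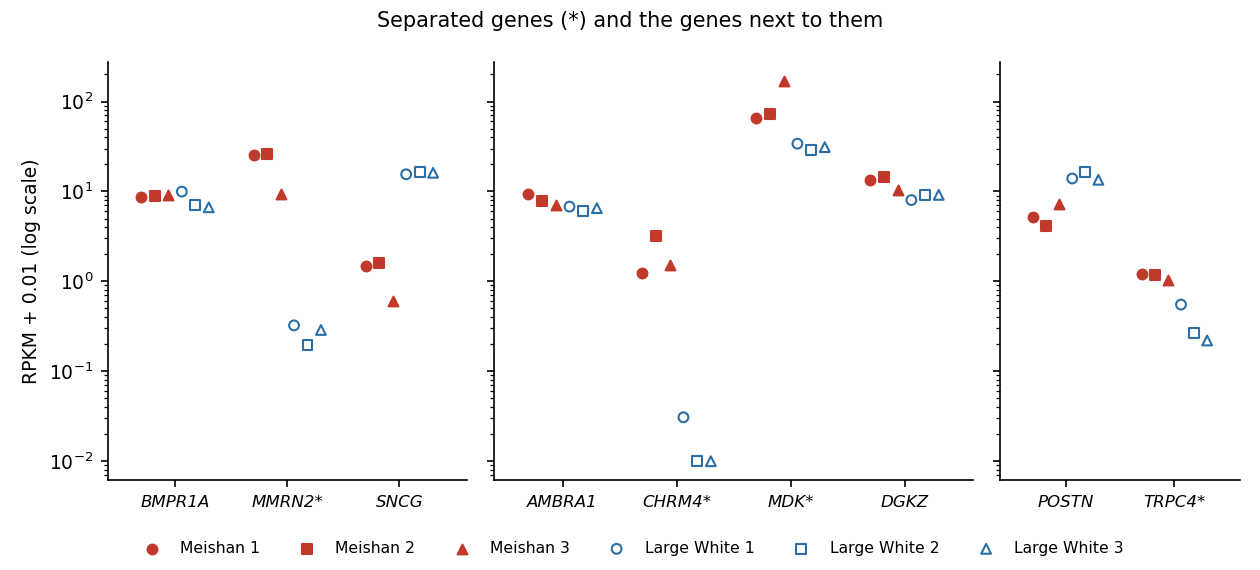
RPKM plus 0.01 (vertical log axis) in each of the 6 samples for 4 separated genes (starred) and 5 genes near them in 3 stretches of the gene order. Filled red marks are Meishan and open blue marks Large White, with circle, square and triangle for replicates 1, 2 and 3, and the marks of MMRN2 and SNCG lie in opposite order while those of BMPR1A overlap.

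Long noncoding RNAs beside the separated genes were counted on their own strand. The readable part of the annotation table of the study, 1998 of 10813 lncRNAs, lists 12 beside 10 of the separated genes, of which 5 were expressed enough to be tested and 5 were listed at 0 in every sample. By limma 0 of the 5 were called higher in Meishan (0.132% of tested lncRNAs were called higher and 0.793% lower) and limma-voom gave 0 as well, while 4 had an unadjusted p under 0.05. All 4 were antisense to their gene and had a positive log2 fold change. The share of all tested lncRNAs under that p was not worked out, so the count of 4 has no baseline. These lncRNAs also lie beside genes chosen for being higher in Meishan, and nothing is drawn from their common direction. TCONS_00075875, antisense to IFN-ALPHA-11, was at 2.06, 2.41 and 5.20 RPKM in Meishan and 0.536, 0.630 and 0 in Large White. By limma its log2 fold change was 1.56 ± 0.32 (SE), at a Benjamini-Hochberg adjusted p of 0.0877. Like its partner it was highest in Meishan replicate 3. TCONS_00075886, antisense to IFN-OMEGA-6, was at 3.48, 12.5 and 7.92 RPKM against 1.94, 5.34 and 2.32, values that overlapped, with a limma adjusted p by Benjamini-Hochberg of 0.307.

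Both lncRNAs antisense to NPSR1 kept the breeds apart. TCONS_00388059 was at 2.47, 2.60 and 1.98 RPKM in Meishan and 0.252, 0.495 and 1.04 in Large White. By limma its log2 fold change was 1.10 ± 0.23 (SE), at a Benjamini-Hochberg adjusted p of 0.0906. TCONS_00388063 was at 2.39, 2.27 and 1.35 RPKM against 0.582, 0.452 and 0.454, with a limma log2 fold change of 0.99 ± 0.21 (SE) and a Benjamini-Hochberg adjusted p of 0.0927. Without Meishan replicate 3 the latter passed, with a limma adjusted p by Benjamini-Hochberg of 0.0318 and a log2 fold change of 1.16. The fifth tested lncRNA, TCONS_00517452 beside ENSSSCG00000006344 on the same strand, was at 1.21, 0.878 and 0.779 RPKM against 0.791, 0.641 and 0.910, which overlapped, while the gene itself was at 1.93, 2.05 and 1.49 RPKM against 0.602, 0.808 and 0.379. The lncRNAs beside CEP43, KLF6, ENSSSCG00000010278 and ENSSSCG00000022033 were listed at 0 throughout, and those beside SIPA1L1 and ENSSSCG00000012864 had at most 1 read in any sample. CEP43, a protein of the centrosome, was itself at 1.21, 1.47 and 2.07 RPKM in Meishan and 0.633, 0.696 and 0.771 in Large White. ENSSSCG00000010278 was at 1.17, 0.854 and 0.950 RPKM against 0.169, 0.0915 and 0.276, ENSSSCG00000022033 at 1.13, 1.19 and 0.994 against 0.628, 0.590 and 0.565, and ENSSSCG00000012864 at 1.11, 2.33 and 1.74 against 0.231, 0.579 and 0. In each of them the breeds were separated with at most 1 read per sample on the lncRNA listed beside the gene.

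The marker and pathway lists gave the setting of these genes. Of their 214 tested genes, limma called 0 higher and 2 lower in Meishan, and limma-voom gave the same counts. The 0 higher carries no information of its own, since every gene either test called higher was a separated gene and no list held one. At an unadjusted p under 0.05, limma had 8 higher and 27 lower. Over all 13388 tested protein-coding genes it had 2145, of which 820 were higher. The 2 called were POSTN and ALDOC, an aldolase of glycolysis at 10.1, 7.75 and 5.81 RPKM in Meishan and 19.6, 22.4 and 21.4 in Large White. By limma its log2 fold change was -1.34, at a Benjamini-Hochberg adjusted p of 0.0404. ALDOC had a limma adjusted p by Benjamini-Hochberg of 0.105 without Meishan replicate 2 and of 0.168 to 0.218 without 1 of the Large White samples, and of 0.0196 to 0.218 over all alternatives. Neither POSTN nor ALDOC was called by limma with a pseudocount of 0.1, with no filter, without a trend or with the replicate number as a block. The ovarian hormone and growth factor list had 23 tested genes with 0 called and a median log2 fold change of 0.13, and its summed RPKM was 235, 187 and 889 in Meishan and 180 to 186 in Large White. The list of somatic ovarian genes, which GATA4 belongs to, had 8 tested genes with 0 called, 6 of them with a log2 fold change above 0. Steroidogenic genes had 6 tested with 0 called. SCARB1, which takes up cholesterol, was at 1119, 908 and 252 RPKM in Meishan and 356, 505 and 489 in Large White, so the Meishan samples lay on both sides. KIT, a receptor found on germ cells and also on other cells, was at 1.68, 1.99 and 7.77 RPKM in Meishan and 16.6, 14.8 and 16.9 in Large White. By limma its log2 fold change was -2.05, at a Benjamini-Hochberg adjusted p of 0.0866.

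The remaining lists are given by their medians, since no gene on them could be called higher. Antigen presentation, with 10 tested genes, had a median log2 fold change of 0.02, extracellular matrix and adhesion, with 22, of 0.20, and glycolysis and hypoxia, with 18, of -0.09. Glutathione and xenobiotic metabolism, with 14 tested genes, had -0.21, immediate early and stress genes, with 10, had -0.18, and ribosomal proteins, with 20, had -0.51. Among cell type lists the median was -0.28 for 8 stromal genes, -0.09 for 10 genes of meiosis and retinoic acid, 0.24 for 3 of germ cells, -0.06 for 4 of erythroid cells and -0.16 for 6 of muscle. It was -0.24 for 2 genes of Sertoli cells, 0.02 for 2 of mesonephros and kidney and 0.11 for 3 of surface and duct epithelium, and no gene of adrenal cortex or nerve was expressed enough to be tested. The summed RPKM of muscle genes was 99.5, 115 and 512 in Meishan and 87.2 to 266 in Large White, highest again in Meishan replicate 3.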

How the data were processed

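The authors deposited 1 RPKM value per feature and sample. By the methods of the study, the authors mapped reads with TopHat (2.1.0 per the labels) to S. scrofa 10.2 with Ensembl annotation, counted read pairs by strand with htseq-count, and scaled them to length and mapped reads. Using lncRNA lengths of the annotation table, the value of 1 read, and so depth and reads per gene, were worked out (tolerance 0.001). Figures based on reads cover counting error only. Of the mitochondrial identifiers, 13 were left out. Breeds were compared with limma 3.58.1 (R 4.3.3; lmFit, eBayes with a trend) on log2(RPKM + 1) over the 14902 features that reached 0.5 RPKM in 3 or more samples, adjusted by Benjamini-Hochberg over all of them, and called at an adjusted p under 0.05 and a fold of at least 2. This scale understates changes of low features. Since the deposited values are RPKM, no count model was the main test, and limma-voom on the reads worked out from them was run as an alternative. On simulated data the procedure recovered 135 of 200 features changed by a log2 of 1.5, and 179 of 200 changed by 2. It made 0 false calls with no change and 1 in each of the others. The simulation had the same spread setting for all features and no outlying sample, unlike these data. Python 3.11.15 was used for the rest.

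The genes, the lists and the tests were chosen with earlier results of these data known. Genes named by rule were the 15 separated genes with a symbol and the largest ratio, the 10 with the highest Meishan mean, those on the lists, 3 on each side of the ratio limit, those with a lncRNA listed beside them, 2 without a symbol, and called list genes. Other genes were taken from the role groups, drawn up after values were seen, and genes outside the separated group that serve as examples were also picked after their values were seen. Where the files' identifiers had no symbol in the tables used, the gene was given by identifier. 1 gene that the rule names is not reported here.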

Additional observations from a re-analysis of the deposited data

How the results depend on the processing

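The call of 30 genes, all of them separated genes, depended on the processing. With a pseudocount of 0.1 limma called 19, with limma-voom on recovered reads 17 and with no filter 0 (2424 protein-coding genes had an unadjusted p under 0.05 there, 978 of them higher). The other 5 settings of the test gave 23 to 35. The replicate number as a block left 7. Deviations of same-numbered samples correlated at only -0.04, 0.12 and 0.15, and not every sample correlated best with its own number, so the numbers were not taken as pairs. Leaving out 1 sample gave 0 to 90 called genes and 0 to 49 called separated genes, the highest without Meishan replicate 3 and 0 without any 1 of the Large White samples. There 160 to 163 separated genes had an unadjusted p under 0.05, which the rule that chose them fixes and which supports nothing. Without Meishan replicate 1 or 2 the calls were 13 and 14. Of the lncRNAs beside them 0 to 1 were called when a sample was left out. The rule was met by 282 genes at a lowest Meishan RPKM of 0.1, by 528 at a ratio of 1.2 and by 74 at a ratio of 2, and by 240 to 412 with a sample left out. Quantile normalization gave 176 genes, of which 162 were among the 181, and upper quartile scaling 217, of which 177 were. The causes of these changes were not tested. No separated gene changed its direction under any alternative run, which the rule that chose them largely fixes. SNCG, POSTN and ALDOC kept theirs too. Direction was not followed in this way for the lncRNAs and the other genes outside the group. The share of called protein-coding genes that were higher in Meishan was 30.3%, and 24.3% (limma-voom) to 38.0% (upper quartile scaling) under the other settings except no filter, where it was 0% of 4 called genes. It was 30.2% to 40.5% without 1 Meishan sample, the highest without replicate 3, and 0% of 3 to 8 called genes without 1 Large White sample. Depth limits the genes with few reads: 64 separated genes had under 100 reads in their lowest Meishan sample.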
